A study of Mus musculus with 10 samples.

Results

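The 7 genes described here build, load and switch on the class II molecules of the major histocompatibility complex (MHC). They were chosen by symbol, and they are 7 of the 55385 mouse genes in the deposited table. H2-Aa, H2-Ab1 and H2-Eb1 encode classical chains, Cd74 encodes the invariant chain, H2-DMa and H2-DMb1 encode the 2 chains of a peptide editor, and Ciita encodes the transactivator of the other genes. Each was matched to 1 row by its Ensembl identifier in GENCODE M21. All 7 passed the filter on low counts.

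The RNA came from neutrophils of squamous cell carcinomas (SCC) that grew from cells grafted on CatchupIVM-red mice. In these hosts a Cre recombinase and a red Tomato reporter are expressed from the locus of Ly6g, a neutrophil surface gene, and Tomato+ cells were isolated. The grafted cells were Sox2low control cells of the parental line, whose column labels carry the word GFP, or Sox2Hi cells, which carry high Sox2, a stem cell transcription factor. Tumours were naive, meaning untreated, or established and then treated with anti-PDL1/CD40 agonist, which blocks a checkpoint ligand and stimulates CD40. The column labels of all groups begin with C57. Libraries numbered 3 for control naive, 2 for control treated, 3 for Sox2Hi naive and 2 for Sox2Hi treated. Replicates are named here by the number in their titles. The column labels give the naive libraries the same numbers, but number control treated replicates 1 and 2 as 2.2 and 3, and Sox2Hi treated replicate 2 as 3. The host age, the doses and the days of treatment are not given in the sources used here. The labels do not say that replicates are separate animals, so p-values measure the spread between libraries, which may be partly technical. Reads of Ddx3y, a Y-linked gene, ran from 4 to 3854 in control naive and from 6 to 2814 in Sox2Hi naive. They were 8 and 6618 in control treated and 3980 and 7 in Sox2Hi treated. The libraries of a group thus do not all come from 1 host.

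MHC class II molecules are pairs of an alpha and a beta chain that carry peptides from swallowed and digested protein to the cell surface, where CD4 T cells read them. Newly made pairs are filled by the invariant chain, Cd74. Cathepsins trim it to a short fragment, and the DM editor then swaps that fragment for a stable peptide. Ciita does not bind DNA itself: it joins a complex of RFX, CREB and NF-Y proteins on the X and Y boxes of class II promoters. Interferon gamma induces Ciita, in part through IRF1. Dendritic cells, macrophages and B cells are the usual class II cells, and resting neutrophils are known for carrying little of it.

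The promoters are shown because 6 of the 7 genes moved together in the control graft, and because they display the boxes that class II genes share. RefSeq windows on GRCm38.p6 matched 4 of the 7 genes: H2-Aa, H2-Eb1, H2-DMa and H2-DMb1. The other 3, H2-Ab1, Cd74 and Ciita, are named only. The lines give the 150 bases before the RefSeq start of 3 of the genes and of H2-DMb2 and H2-Ob, 2 relatives that stood out in 1 library. They lie at chr17:34287824-34287973 on the minus strand and, on the plus strand, at chr17:34305717-34305866, chr17:34153041-34153190, chr17:34145099-34145248 and chr17:34238755-34238904. Capitals mark the Y box letters TGATTGG, the X box letters, which are AAC and ATGATG with any 2 bases between them, and, in H2-Aa, the CREB palindrome TGACGTCA.
H2-Aa: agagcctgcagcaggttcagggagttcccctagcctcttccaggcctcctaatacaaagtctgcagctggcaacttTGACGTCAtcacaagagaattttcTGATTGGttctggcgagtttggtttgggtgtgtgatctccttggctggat
H2-Eb1: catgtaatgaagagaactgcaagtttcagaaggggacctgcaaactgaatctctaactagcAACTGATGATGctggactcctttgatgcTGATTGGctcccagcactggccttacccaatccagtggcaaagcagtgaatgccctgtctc
H2-DMb1: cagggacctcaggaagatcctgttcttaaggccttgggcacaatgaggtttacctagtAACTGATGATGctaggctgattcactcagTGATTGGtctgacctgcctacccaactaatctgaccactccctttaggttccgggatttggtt
H2-DMb2: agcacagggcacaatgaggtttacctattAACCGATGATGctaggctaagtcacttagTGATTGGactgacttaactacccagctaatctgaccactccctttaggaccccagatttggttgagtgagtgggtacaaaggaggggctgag
H2-Ob: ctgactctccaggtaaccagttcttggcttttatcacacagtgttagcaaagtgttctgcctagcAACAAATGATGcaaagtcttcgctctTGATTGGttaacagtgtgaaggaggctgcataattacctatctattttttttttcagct
Both strands were searched over the 250 bases before each start, and the 3 motifs do not overlap one another in the lines shown. The letters were chosen after these windows had been read, so the matches describe the lines shown. TGATTGG stood at positions -50 to -44 before the start in H2-Aa, -61 to -55 in H2-Eb1 and -63 to -57 in H2-DMb1. The X box letters stood further out, at -89 to -79 in H2-Eb1 and -92 to -82 in H2-DMb1. Of all 32544 windows, 7.21% held TGATTGG, 0.120% held the X box letters and 1.56% held TGACGTCA. Only 9 windows held both the Y and X letters, and 4 of these belong to H2-DMb1, H2-DMb2, H2-Eb1 and H2-Ob. Neither of the 2 windows of H2-DMa held any of the 3. Those windows end at 34122831 and 34125517 on chromosome 17, inside the GENCODE span of the gene, 34119541 to 34139101. Whether either covers the promoter used in these cells was not tested, so the windows do not show that H2-DMa lacks the boxes.

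Library totals ran from 13815734 to 22986193 counts. Values are CPM, counts scaled to the library size, here with TMM factors from all 29648 genes tested, called the all-gene scaling. The main results are also given with factors from the 11274 genes of at least 5 CPM, called the expressed-gene scaling, and a value with no scaling named is on the all-gene scale. The choice matters in control treated, where the medians of log2 fold change against naive were -0.30 and -0.18 over all genes tested, and 1.10 and 0.55 over the 1509 genes of at least 100 CPM. The word called marks a Benjamini-Hochberg adjusted p under 0.05 in edgeR's quasi-likelihood test. The neutrophil label was checked on 12 markers: Ly6g was low, at 1.57 to 20.6 CPM, while S100a8, an abundant neutrophil transcript, was at 1012 to 11868 CPM. The sum of those markers was 2321 to 4056 CPM in the 6 naive libraries, 20881 and 26141 CPM in control treated and 7332 and 7407 CPM in Sox2Hi treated. Markers of other cells were present in every library, and no marker was at 0 in any. Macrophage and monocyte markers summed to 626 to 1476 CPM, dendritic cell markers to 44.3 to 114 CPM and T and NK cell markers to 32.2 to 589 CPM. Keratinocyte markers, which SCC cells also carry, summed to 487 to 1756 CPM. B cell markers summed to 10.6 to 19.3 CPM in 9 libraries and to 136 CPM in Sox2Hi naive replicate 2, which stands apart. Background was put from reads over 1464 silent receptor genes, as a mean share of counts with its SD. It was 6.36% ± 1.77 for the 3 control naive libraries and 1.66% ± 0.109 for the 2 control treated ones. The 3 Sox2Hi naive libraries had 3.76% ± 0.144 and the 2 Sox2Hi treated ones 4.50% ± 0.650.

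Among the class II transcripts of these libraries, Cd74 was the most abundant in every one. In the naive libraries Cd74 alone, at 4824 to 8359 CPM, was above the summed neutrophil markers, at 2321 to 4056 CPM. The 7 genes together took 0.888% to 2.17% of a library's counts. Of their reads, Cd74 held 65.1% to 71.1% in every library, H2-Ab1 16.2% to 18.8%, H2-Aa 6.36% to 8.01% and H2-Eb1 3.75% to 5.34%. Per kb of exon on the all-gene scale, the median level over the 10 libraries was 3858 CPM per kb for Cd74, 628 for H2-Ab1, 221 for H2-Eb1 and 171 for H2-Aa. The DM chains followed, with H2-DMb1 at 74.9 and H2-DMa at 21.2 CPM per kb, and Ciita was lowest at 0.958. Each gene was above the next in 10 of 10 libraries, under both scalings. As ranges over all libraries, the neighbours H2-Ab1 and H2-Eb1, H2-Eb1 and H2-Aa, and H2-DMb1 and H2-DMa overlapped on the all-gene scale. The length was a fixed value per gene, with all annotated exons merged, at 3798 bases for H2-Aa and 1944 bases for H2-Eb1. By CPM not divided by length, H2-Aa was above H2-Eb1 in every library, so the order of this pair rests on the length used. Cell mixtures underlie all these values: in bulk RNA, fewer cells of a type and less RNA per cell cannot be told apart.

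In the control graft, the classical chains rose with treatment: H2-Aa 3.01-fold, H2-Ab1 2.86-fold and H2-Eb1 2.43-fold. H2-Aa encodes the alpha chain of the I-A molecule and H2-Ab1 its beta chain, and H2-Eb1 encodes the beta chain of I-E. The 3 genes lie on chromosome 17 in GRCm38, H2-Aa at 34282744 to 34287823, H2-Ab1 at 34257689 to 34269419 and H2-Eb1 at 34305867 to 34316674. H2-Ab1 was at 1305, 1617 and 1395 CPM in control naive and at 3932 and 4301 CPM in control treated. H2-Aa was at 549.6, 604.5 and 593.5 CPM in control naive and at 1583 and 1928 CPM in control treated. H2-Eb1 was at 358.9, 421.8 and 395.8 CPM in control naive and at 909.7 and 994.4 CPM in control treated. For each chain both treated libraries were above all 3 naive ones. The log2 fold changes were 1.59 for H2-Aa (SE 0.32, edgeR adjusted p 0.00304), 1.52 for H2-Ab1 (SE 0.32, adjusted p 0.00382) and 1.28 for H2-Eb1 (SE 0.27, adjusted p 0.00377). Under the expressed-gene scaling they were smaller, 1.03, 0.95 and 0.72, and still called in edgeR (adjusted p 0.0200, 0.0324 and 0.0441). With library totals alone none of the 3 was called.

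The invariant chain and the editor moved in the same direction in the control graft. Cd74 lies on chromosome 18 at 60803848 to 60812652, and its product also escorts class II pairs out of the endoplasmic reticulum. It was at 4889, 6081 and 4824 CPM in control naive and at 15980 and 18884 CPM in control treated, a log2 rise of 1.73 (SE 0.31, edgeR adjusted p 0.00140). H2-DMa and H2-DMb1, on chromosome 17 at 34119541 to 34139101 and 34153072 to 34160230, encode the alpha and beta chains of H2-DM. H2-DMa was at 61.0, 61.8 and 69.1 CPM in control naive and at 185.9 and 217.4 CPM in control treated. H2-DMb1 was at 92.9, 101 and 128 CPM in control naive and at 234 and 217 CPM in control treated. The naive and treated libraries did not overlap for any of the 3 genes. Groups apart in that direction were common in this comparison, at 23.7% of all genes tested and 75.7% of genes of at least 100 CPM. H2-DMa rose by a log2 of 1.66 (SE 0.29, edgeR adjusted p 0.00119) and H2-DMb1 by 1.07 (SE 0.22, adjusted p 0.00398). On the expressed-gene scale the log2 changes were 1.16 for Cd74, 1.10 for H2-DMa and 0.53 for H2-DMb1 (adjusted p 0.0151, 0.00702 and 0.0477 in edgeR). H2-DMb1 shares 31.4% of its 31-base words with H2-DMb2, and H2-DMa shares 9.23% with Brd2, so reads could be split between these pairs.

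Ciita, the transactivator, showed the smallest log2 difference of the 7 in the control graft. It lies on chromosome 16 at 10480059 to 10528418. Only 120 to 245 reads per library fell on it, and the expected background came to 31.4% of them, from 16.2% to 56.2% by library. It was at 6.99, 7.80 and 7.93 CPM in control naive and at 12.4 and 10.6 CPM in control treated. The groups did not overlap on the all-gene scale, with a log2 difference of 0.60 (SE 0.28, edgeR adjusted p 0.116). On the expressed-gene scale the groups overlapped, at 8.48, 10.5 and 8.82 CPM against 10.7 and 8.52 CPM, with a difference of 0.05 (SE 0.30, edgeR adjusted p 0.892). With library totals alone the difference was -0.46, while DESeq2 and the fit of the 2 control groups alone called it at 0.82 and 0.73.

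In all, 6 of the 7 genes were called higher in control treated under both scalings, and none was called lower. The background of calls in that comparison was wide: 34% of all genes tested were called with the all-gene scaling, 18.7% higher, and 57.3% with the expressed-gene scaling, 24.1% higher. Among genes of at least 100 CPM, a class that holds 6 of the 7, 70.5% were called higher with the all-gene scaling and 55.5% with the expressed-gene scaling. The median log2 difference of the 7 was 1.52 and 0.95 under the 2 scalings, against 1.10 and 0.55 in that class. With library totals alone 2 genes were called, Cd74 and H2-DMa, and with background subtracted 3 were, where 5.03% and 15.3% of all genes tested were called higher. The median log2 difference of the 7 was 0.44 and 0.91 in those fits. Leave-one-out fits on the expressed-gene scale gave 1 call without control naive replicate 1 or without replicate 3, and 3 calls without either control treated library. In those 4 fits 20.8%, 21.5%, 23.8% and 24.5% of all genes tested were called higher. Where a fit leaves a treated group with 1 library, that library is assumed to vary like the other groups. The neutrophil markers moved as well, with 12 of 12 called higher, as were 5 of 10 macrophage and monocyte, 4 of 10 dendritic cell and 5 of 8 T and NK cell markers, with 1 dendritic cell marker called lower. On the expressed-gene scale 11 of 11, 2 of 9, 0 of 5 and 4 of 5 of these lists were called higher, and 0 of 6 B cell markers were called with the all-gene scaling. Of 8 keratinocyte markers, 0 were called with the all-gene scaling (median -0.27), while 4 were called lower and all 8 were negative with the expressed-gene scaling (median -0.76). The neutrophil markers had the larger medians, 3.05 and 2.57 under the 2 scalings, against 1.52 and 0.95 for the 7 class II genes. The part of these marker lists in the class II result was not tested.

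**Figure D1:**
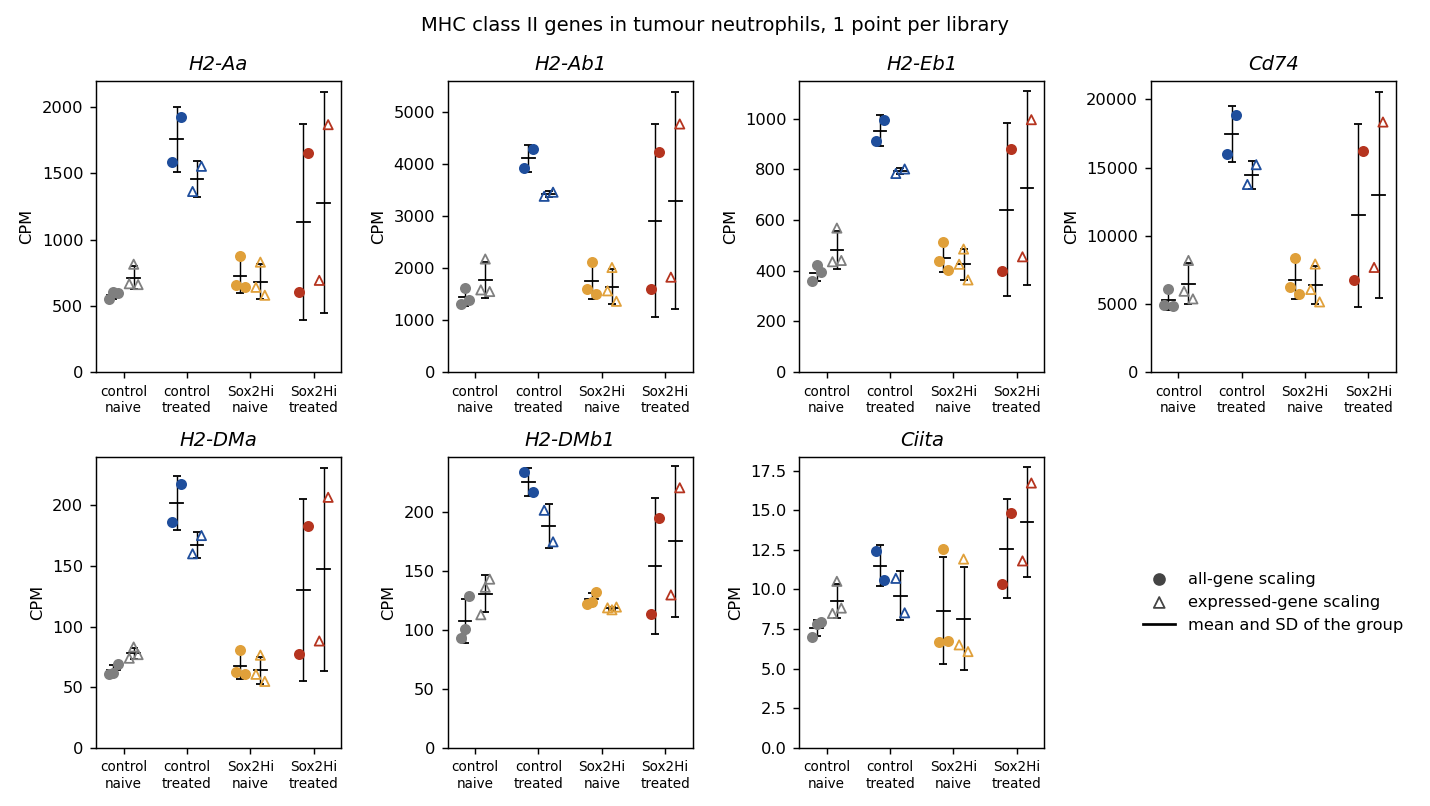
CPM of the 7 class II genes (vertical axes start at 0) in the 10 libraries by group, with filled circles for the all-gene and open triangles for the expressed-gene scaling, and bars for mean and SD. Control treated is above control naive for 6 genes under both scalings, and the 2 Sox2Hi treated libraries lie far apart, as for H2-Ab1 at 1603 and 4231 CPM.

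In the Sox2Hi graft, the 2 treated libraries gave 2 different answers for the same genes. On the all-gene scale, replicate 1 lay near the naive levels and replicate 2 near the control treated levels for most of the genes. H2-Ab1 was at 1607, 2124 and 1508 CPM in Sox2Hi naive and at 1603 and 4231 CPM in Sox2Hi treated. Cd74 was at 6223, 8359 and 5694 CPM in Sox2Hi naive and at 6731 and 16236 CPM in Sox2Hi treated. H2-Aa was at 657.0, 875.0 and 641.6 CPM in Sox2Hi naive and at 606.9 and 1653 CPM in Sox2Hi treated. Treated replicate 1 was below all 3 naive libraries for H2-Aa and within their range for the other 2, while replicate 2 was above them all. H2-Eb1 was at 436.9, 511.8 and 402.2 CPM in Sox2Hi naive and at 398.7 and 881.4 CPM in Sox2Hi treated. H2-DMa was at 62.3, 80.6 and 60.6 CPM in Sox2Hi naive and at 77.3 and 183 CPM in Sox2Hi treated. The naive range overlapped the treated range for both on the all-gene scale. H2-DMb1, at 122, 123 and 132 CPM in Sox2Hi naive and 114 and 195 CPM in Sox2Hi treated, followed the same split. Ciita was at 6.67, 12.6 and 6.72 CPM in Sox2Hi naive and at 10.3 and 14.8 CPM in Sox2Hi treated, with overlap. On the expressed-gene scale replicate 1 was above all 3 naive libraries for H2-DMa, at 88.1 CPM beside 54.7 to 76.4 CPM, and for H2-DMb1, at 129 CPM beside 117 to 119 CPM. Groups apart in that direction made up 37% of all genes tested and 42.2% of genes of at least 100 CPM on that scale. Replicate 2 was there above both control treated libraries for all 7 genes, as for H2-Ab1 at 4778 CPM beside 3385 and 3464 CPM.

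EdgeR called none of the 7 genes in the Sox2Hi graft with the all-gene scaling, where 3.61% of all genes tested were called. At an unadjusted p under 0.05 there were 3, and 7 with the expressed-gene scaling, beside 21.8% and 39.5% of all genes tested. Limma-voom called 0 and DESeq2 called 1, H2-DMa, beside 21.9% of the genes it tested. The log2 differences were all positive, from 0.30 for H2-DMb1 (95% interval -0.20 to 0.79) to 0.94 for H2-DMa (0.31 to 1.57, edgeR adjusted p 0.0894). The expressed-gene scaling gave 1 call, H2-DMa at 1.21 (SE 0.28, edgeR adjusted p 0.0170), where 21.6% of all genes tested were. Without Sox2Hi treated replicate 1, 4 genes were called: H2-DMa at 1.44, H2-Ab1 at 1.29, Cd74 at 1.27 and H2-Aa at 1.20. That fit has 1 Sox2Hi treated library, takes its spread from the other groups and called 1.22% of all genes tested. Without Sox2Hi treated replicate 2, the differences were -0.27 for H2-Aa, -0.19 for H2-Eb1, -0.16 for H2-DMb1, -0.14 for H2-Ab1 and -0.02 for Cd74, while H2-DMa and Ciita were at 0.18 and 0.25, uncalled. Expressed-gene fits called 6 without treated replicate 1, beside 11.9% of all genes tested, and 2 without naive replicate 2, beside 12.2%.

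Few abundant genes differed between the 2 Sox2Hi treated libraries as much as the class II genes did. On the all-gene scale, H2-Aa was 2.72-fold, H2-Ab1 2.64-fold, Cd74 2.41-fold, H2-DMa 2.37-fold and H2-Eb1 2.21-fold higher in replicate 2 than in replicate 1. H2-DMb1 was 1.72-fold and Ciita 1.43-fold higher. Among the 1509 genes of at least 100 CPM, 38 were at least doubled in replicate 2, or 2.52%, and 5 of those 38 were class II genes. The median log2 ratio of that class was 0.16. In control treated, 8 of the 1509 genes were doubled, none of them class II, and H2-Ab1 differed 1.09-fold and Cd74 1.18-fold between replicates. Other genes doubled in Sox2Hi treated replicate 2, picked here after their values were seen, were Cd86, a costimulatory ligand, at 108 and 427 CPM, Cybb, an oxidase subunit, at 403 and 924 CPM, and Lyz2, a myeloid lysozyme, at 1384 and 2889 CPM. Macrophage and monocyte markers summed to 645 CPM in replicate 1 and 1457 CPM in replicate 2, with the monocyte receptor Ccr2 at 59.1 and 185 CPM. Dendritic cell markers summed to 44.3 and 54.4 CPM, T and NK cell markers to 226 and 155 CPM, neutrophil markers to 7407 and 7332 CPM and B cell markers to 14.2 and 16.7 CPM. S100a8 and S100a9 made up most of the neutrophil sum, at 3363 and 3172 CPM and at 2533 and 2435 CPM. The granule genes Ngp and Camp of the same list were higher in replicate 2, Ngp at 74.5 and 300.0 CPM and Camp at 9.84 and 46.6 CPM. Retnlg, Mmp8 and Fcnb were also higher there. The rest of the list was lower there: Ly6g at 9.06 and 5.13 CPM, Cxcr2 at 372 and 283 CPM and Mmp9 at 93.5 and 77.4 CPM. So were Csf3r, at 172 and 160 CPM, and the granule gene Ltf, at 68.5 and 65.1 CPM. In Sox2Hi naive the macrophage and monocyte sum was 1129 to 1476 CPM, while H2-Ab1 was at 1508 to 2124 CPM. That sum was 626 to 824 CPM in control naive and 1338 and 955 CPM in control treated. The part of any of these markers and genes in the split was not tested. Ddx3y, a Y-linked gene, had 3980 reads in replicate 1 and 7 in replicate 2, and it had 8 and 6618 reads in the 2 control treated libraries. In the naive groups replicate 1 had 4 and 6 reads of it, replicate 2 had 3854 and 2814 and replicate 3 had 1436 and 1007. In each treated group Ddx3y was high in 1 library, so replicate and Ddx3y cannot be told apart there. With Ddx3y as a covariate, edgeR called 0 of the 7 genes in the Sox2Hi graft and 6 in the control graft, as without it. The share of all genes tested called in that fit is not at hand, so these counts cannot be weighed.

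**Figure D2:**
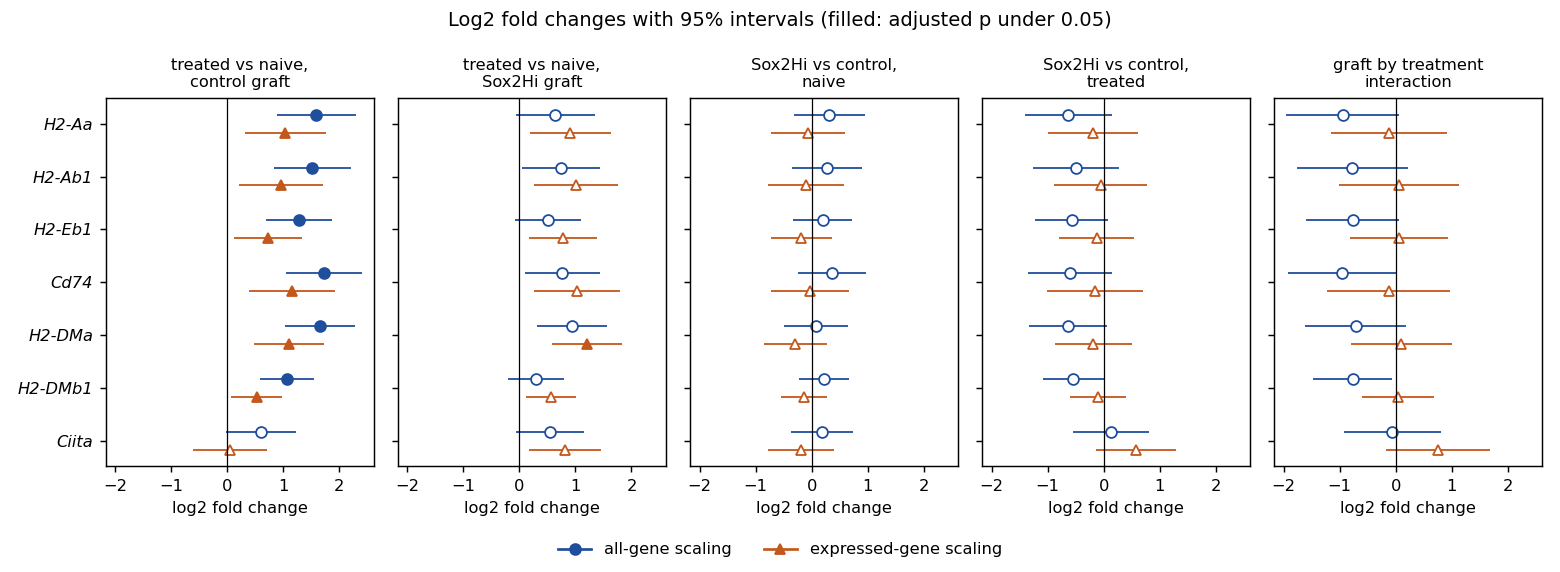
Log2 fold changes of the 7 genes with 95% intervals in the 5 comparisons, all-gene scaling as circles and expressed-gene scaling as triangles, filled where the edgeR adjusted p was under 0.05. Filled symbols stand in the control graft for 6 genes and in the Sox2Hi graft for H2-DMa with the expressed-gene scaling.

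Between the naive grafts, class II levels lay close together. Of the 7 genes edgeR called 0 under either scaling, while 1.87% and 14% of all genes tested were called with the all-gene and expressed-gene scaling. None had an unadjusted p under 0.05, where 27.3% and 26.6% of all genes tested had one, and DESeq2 and limma-voom called 0. Log2 differences, Sox2Hi against control, ran from 0.08 for H2-DMa to 0.36 for Cd74 with the all-gene scaling and from -0.29 for H2-DMa to -0.03 for Cd74 with the expressed-gene scaling, so the sign rests on the scaling. For H2-Ab1 the 95% interval was -0.35 to 0.91, a range of 0.786-fold to 1.87-fold. For H2-Aa all 3 Sox2Hi naive libraries were above the 3 control ones on the all-gene scale, as for 17.3% of all genes tested and 47.4% of genes of at least 100 CPM, but not on the other. Sox2Hi naive replicate 2 was the highest of its group for 6 of the 7 genes, all but H2-DMb1, and for Ciita it stood at 12.6 CPM beside 6.67 and 6.72 CPM. For H2-Aa, H2-Ab1, H2-Eb1 and Cd74, the library titled replicate 2 was the highest of each of the 4 groups under both scalings, though the column labels number the 2 treated ones of these as 3. Without Sox2Hi naive replicate 2 the Ciita difference was -0.18.

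Between the treated grafts, the Sox2Hi mean was lower for 6 of the 7 genes with the all-gene scaling, and edgeR called none of them. Calls there covered 13.7% of all genes tested with the all-gene scaling and 20.9% with the expressed-gene scaling. The differences ran from -0.64 for H2-Aa to -0.50 for H2-Ab1 in those 6, and Ciita stood at 0.13 with the all-gene scaling. Expressed-gene values ran from -0.19 for H2-Aa to -0.05 for H2-Ab1, with Ciita at 0.57 and 0 called. With library totals alone all 7 were positive, from 0.055 for H2-Aa to 0.85 for Ciita, and Ciita was called, as were 37.1% of all genes tested. With the all-gene scaling 1 gene had an unadjusted p under 0.05 and with the other none did, beside 32.5% and 35.9% of all genes tested. Limma-voom called 0 and DESeq2 called 1, H2-DMb1 at -0.71, beside 23.7% of the genes it tested. With the expressed-gene scaling Ciita was higher in both Sox2Hi libraries, at 11.8 and 16.7 CPM against 10.7 and 8.52 CPM in control treated. The other 6 genes overlapped on that scale. H2-Eb1, H2-DMa and H2-DMb1 were lower in both Sox2Hi libraries than in either control library with the all-gene scaling, as were 27.3% of all genes tested and 88.5% of genes of at least 100 CPM. H2-Aa, H2-Ab1 and Cd74 overlapped, since Sox2Hi treated replicate 2 lay between the 2 control values. Without that replicate, which leaves 1 Sox2Hi treated library, 5 genes were called beside 4.77% of all genes tested, with H2-Aa at -1.54, H2-DMa at -1.39, Cd74 at -1.38, H2-Ab1 at -1.37 and H2-Eb1 at -1.27. The expressed-gene fit called 2 without it, beside 9.86% of all genes tested.

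The interaction asks whether the treatment difference itself differed between grafts. The edgeR fit without a block called none of the 7 genes, where 27.5% of all genes tested were called with the all-gene scaling and 19.8% with the expressed-gene scaling. It was -0.96 for Cd74 (95% interval -1.93 to 0.00), -0.95 for H2-Aa and -0.77 for H2-DMb1 (SE 0.32, edgeR adjusted p 0.0892), and Ciita was closest to 0 at -0.06. With the expressed-gene scaling the values ran from -0.13 to 0.10 for 6 genes and stood at 0.75 for Ciita. An unadjusted p under 0.05 was found for 1 gene with the all-gene scaling and for 0 with the other, beside 43% and 32.5% of all genes tested. Limma-voom called 1 and DESeq2 called 4, where they called 26.7% and 29.5% of the genes they tested. Without Sox2Hi treated replicate 2 there were 6 calls, beside 14.8% of all genes tested, with H2-Aa at -1.88 and Cd74 at -1.77, and without control naive replicate 3 there was 1, H2-DMb1 at -0.92, beside 31.6%. Of the other edgeR fits of all 10 libraries, 2 called 1 gene each: with RLE factors H2-DMb1 at -0.98 (adjusted p 0.0419), and with a replicate block by title number Cd74 at -1.04 (adjusted p 0.0383). Those fits called 28.5% and 30% of all genes tested.

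Among the remaining class II chains and editors, H2-DMb2, H2-Ob and H2-Eb2 were higher in Sox2Hi naive replicate 2 than in the other 9 libraries. H2-Eb2 is a second E beta gene, H2-DMb2 is a second DM beta gene, and H2-Oa and H2-Ob encode DO, which restrains DM and is known from B cells. In Sox2Hi naive, H2-DMb2 was at 7.53, 118 and 9.46 CPM, while it was at 5.05 to 24.7 CPM in the other groups. H2-Ob was at 5.66, 50.8 and 6.05 CPM in Sox2Hi naive and at 3.27 to 7.43 CPM in the other groups. H2-Oa was at 1.01, 5.99 and 1.01 CPM in Sox2Hi naive, and at 6.04 and 4.59 CPM in control treated, with 18 to 103 reads per library. H2-Eb2 was at 2.12, 4.89 and 1.96 CPM in Sox2Hi naive and at 1.11 to 3.26 CPM in the other groups. Replicate 2 was the highest Sox2Hi naive library for each of the 4 genes, the one in which the B cell genes Cd79a and Ms4a1 stood at 45.6 and 42.6 CPM. Cd79a was at 0.783 to 3.33 CPM and Ms4a1 at 2.63 to 5.74 CPM in the other 9 libraries. H2-DMb1 did not follow, at 123 CPM there beside 122 and 132 CPM, although it shares sequence with H2-DMb2. Without that library the naive graft difference was 0.00 for H2-DMb2 and 0.02 for H2-Ob, where it had been 2.41 and 1.85, uncalled. Of the 5 genes in this list, 2 were called in control treated with the all-gene scaling: H2-Oa at 2.21 (SE 0.63, edgeR adjusted p 0.0200) and H2-Ea-ps, an I-E alpha pseudogene, at -0.98 (SE 0.33, adjusted p 0.0422). In that comparison 34% of all genes tested were called in either direction. H2-Ea-ps had 6 to 30 reads a library, of which 32.0% was expected background. Most alternatives lost its call, among them leaving out each library but control naive replicate 2, with values from -0.72 to -1.26. H2-Oa lost its call without control naive replicate 1 or without either control treated library (2.02 to 2.42). Neither was tested with the expressed-gene scaling.

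**Figure D3:**
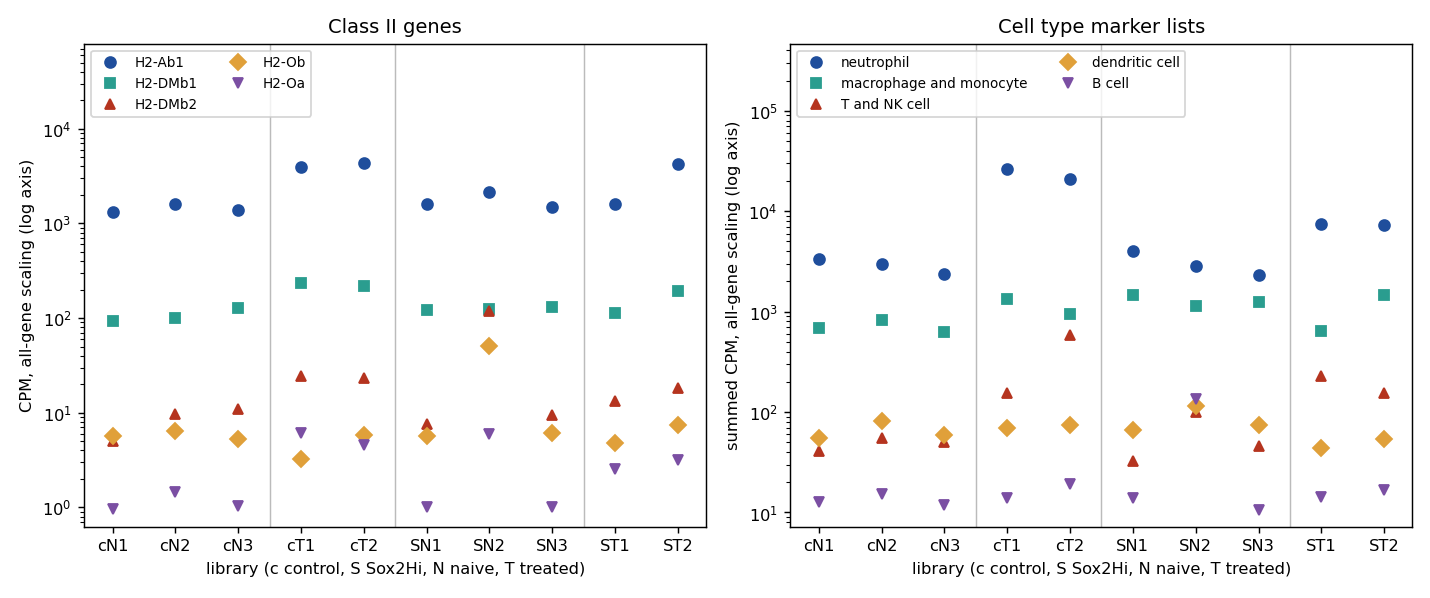
CPM of 5 class II genes and summed CPM of 5 marker lists by library, all-gene scaling, log axes. Sox2Hi naive replicate 2 (SN2) stands out for H2-DMb2, at 118 CPM, H2-Ob and B cell markers, at 136 CPM. Macrophage and monocyte markers and H2-Ab1 are both higher in Sox2Hi treated replicate 2 (ST2) than in replicate 1 (ST1). In Sox2Hi naive those markers are also high, at 1129 to 1476 CPM, while H2-Ab1 is at 1508 to 2124 CPM.

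Genes for the proteins that assemble on class II promoters were called higher in the control graft mainly with the all-gene scaling. RFX proteins bind the X box, NF-Y binds the Y box and CREB binds beside them. Of 7 genes, 5 were called higher in control treated with the all-gene scaling, where 18.7% of all genes tested were, with a median log2 difference of 0.66, against -0.30 over all genes tested. With the expressed-gene scaling 1 of 5 tested was called, beside 24.1% of all genes tested: Nfyb, at 0.88, where the all-gene value was 1.42 (SE 0.17, edgeR adjusted p 0.000102). Rfx5 rose by 1.13 with the all-gene scaling (SE 0.31, edgeR adjusted p 0.0173), with 30 to 73 reads a library, of which 58.0% was expected background. It was not called without control naive replicate 1, at 1.01, or without control treated replicate 1, at 0.96. Nfya, Nfyc and Creb1 turned to -0.40, -0.43 and -0.13 with library totals alone. Nfyb was also lower in Sox2Hi treated than in control treated, by -1.17 (SE 0.20, edgeR adjusted p 0.00770) and -0.73 under the 2 scalings. Its interaction was called under both, at -1.56 and -0.74. Without Sox2Hi treated replicate 1 the treated graft difference was -1.13 and was not called.

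Of the genes that cut antigen and the invariant chain, 5 of 7 were called higher in the control graft under both scalings, with medians of 1.71 and 1.18. Called higher under the 2 scalings were 18.7% and 24.1% of all genes tested, and 70.5% and 55.5% of genes of at least 100 CPM. Ctss, the cathepsin that makes the last cuts in the invariant chain, was at 832.5, 945.7 and 684.4 CPM in control naive and at 3935 and 4108 CPM in control treated. In Sox2Hi naive it was at 931.4, 981.8 and 806.2 CPM and in Sox2Hi treated at 1439 and 2308 CPM. Treated libraries were above naive ones in both grafts, and the gap was wider in the control graft. Its log2 rise was 2.29 in the control graft (SE 0.22, edgeR adjusted p 2.12e-05) and 1.05 in the Sox2Hi graft (SE 0.22, adjusted p 0.0271), and with the expressed-gene scaling 1.72 and 1.31, both called. Its interaction was -1.25 (edgeR adjusted p 0.0152) with the all-gene scaling and -0.41, not called, with the other, and it was lost without Sox2Hi treated replicate 1, at -0.99. The Sox2Hi call was lost without Sox2Hi treated replicate 2, at 0.65, without any 1 of the Sox2Hi naive libraries, at 0.97 to 1.11, and without control naive replicate 1, at 1.05. Ifi30, a thiol reductase that unfolds antigen, rose by 2.2 and 1.64 under the 2 scalings in the control graft. Ctsl and Lgmn, also proteases of this step, were not called there, at 0.44 and 0.56 with the all-gene scaling and -0.092 and 0.0082 with the other. Between the treated grafts, 4 of the 7 genes of this list, 3 of 6 of turnover and costimulation and 2 of 8 of interferon gamma signalling were called lower in Sox2Hi with the all-gene scaling. So were 9.57% of all genes tested, 58.1% of genes of at least 100 CPM and 7 of 12 neutrophil markers. With the expressed-gene scaling no gene of these 3 lists was.

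Most genes of class II turnover and costimulation were also called higher in the control graft. March1 encodes the ubiquitin ligase that draws class II and Cd86 off the surface, Cd83 opposes it, and Cd80, Cd86 and Cd40 give or receive costimulation. In control treated, 5 of 6 were called higher with the all-gene scaling and 4 of 6 with the expressed-gene scaling, with medians of 1.75 and 1.17, beside 18.7% and 24.1% of all genes tested and 70.5% and 55.5% of genes of at least 100 CPM. March1 was at 20.5, 19.2 and 14.9 CPM in control naive and at 123 and 110 CPM in control treated. In Sox2Hi naive March1 was at 18.8, 20.8 and 13.7 CPM and in Sox2Hi treated at 56.3 and 50.9 CPM. Its treated libraries lay close to each other in both grafts, while the Sox2Hi treated ones lay far apart for H2-Ab1. March1 rose by 2.68 in the control graft (SE 0.21, edgeR adjusted p 8.99e-06) and by 1.59 in the Sox2Hi graft (SE 0.21, adjusted p 0.00304), and by 2.12 and 1.86 with the expressed-gene scaling. Leaving out any 1 library kept both calls with the all-gene scaling. Cd86 was at 106, 132 and 87.6 CPM in control naive and at 374 and 628 CPM in control treated. Cd86 was at 139, 129 and 115 CPM in Sox2Hi naive and at 108 and 427 CPM in Sox2Hi treated, a split like that of the class II chains. It rose by 2.21 in the control graft (SE 0.43, edgeR adjusted p 0.00248), or 1.62 with the expressed-gene scaling, and was not called in the Sox2Hi graft. Cd40, the receptor that the agonist engages, rose by 2.27 in the control graft and by 1.44 in the Sox2Hi graft (edgeR adjusted p 2.82e-05 and 0.00848), and by 1.72 and 1.70 with the expressed-gene scaling. Its Sox2Hi call was lost without Sox2Hi treated replicate 2, at 0.99, or without Sox2Hi naive replicate 3, at 1.33.

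The interferon gamma route to Ciita was called higher throughout the control graft, at 8 of 8 genes with the all-gene scaling and 7 of 7 tested with the expressed-gene scaling, with medians of 1.53 and 0.93. The shares of all genes tested called higher were 18.7% and 24.1%, and those of genes of at least 100 CPM were 70.5% and 55.5%. The smallest rise was that of Irf8, an interferon regulatory factor of myeloid cells, at 1.16 and 0.61. Irf1, an interferon-induced factor that acts on Ciita, was at 49.0, 60.0 and 65.2 CPM in control naive and at 315 and 182 CPM in control treated. In the Sox2Hi graft it was at 72.1, 74.2 and 54.8 CPM in naive and at 163 and 153 CPM in treated libraries. The naive and treated libraries did not overlap in either graft. For Irf1, Sox2Hi treated replicate 1 was thus as high as replicate 2, while H2-Ab1 and Cd74 were low in replicate 1. Irf1 rose by 2.10 in the control graft and by 1.24 in the Sox2Hi graft (edgeR adjusted p 6.17e-05 and 0.0221). With the expressed-gene scaling its Sox2Hi value was 1.5, also called. The Irf1 call in the Sox2Hi graft was lost without either treated library or without naive replicate 3, with values of 1.11 to 1.27. Its edgeR interaction was not called, at -0.86 with the all-gene scaling (adjusted p 0.0761). DESeq2 called it at -1.12, as did limma-voom and RLE factors, and edgeR called it without control treated replicate 2, at -1.24. In the Sox2Hi graft, called higher with the all-gene scaling were 2 of 8 genes of this list and 1 of 7 of processing. So were 2 of 6 genes of turnover and costimulation. With the expressed-gene scaling 3 of 7, 3 of 7 and 2 of 6 were, beside 1692 of 11274 genes tested. With the all-gene scaling 6 of 12 neutrophil and 2 of 8 T and NK cell markers were called higher there, beside 1.79% of all genes tested. The part of these markers was not tested.

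**Figure D4:**
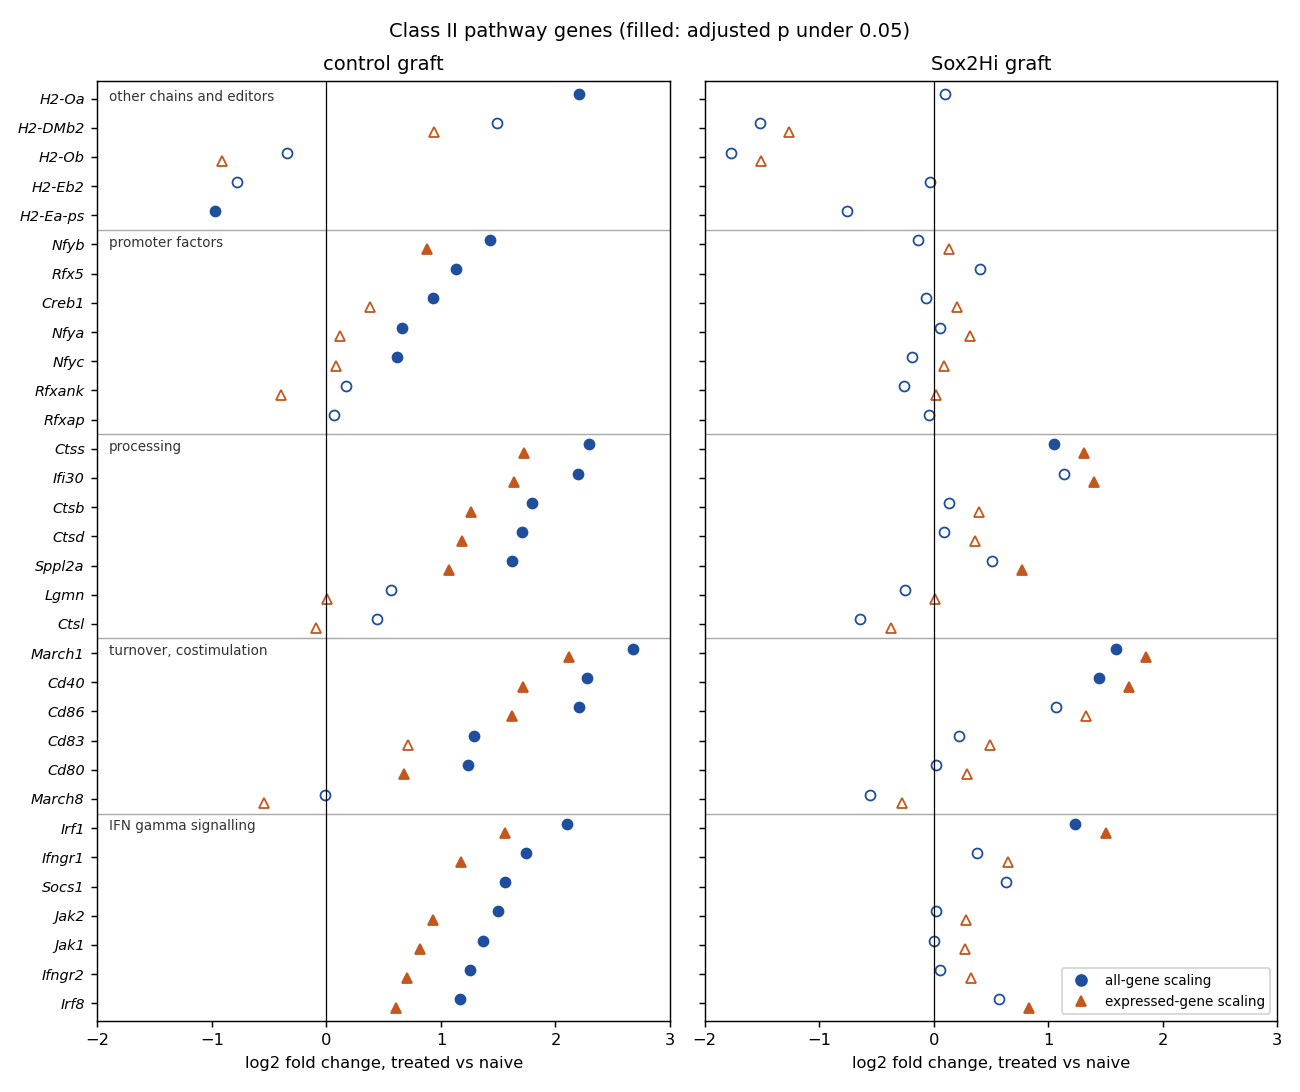
Log2 fold changes of treated against naive for 32 pathway genes in 5 lists, by graft, filled where the edgeR adjusted p was under 0.05, circles for the all-gene and triangles for the expressed-gene scaling. In the Sox2Hi graft Ctss, March1, Cd40 and Irf1 are filled under both scalings.

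The genes whose levels ran closest to the class II mean were named by their Pearson r over the 10 libraries, on log2(CPM + 1), among 7096 genes of at least 10 CPM. With the all-gene scaling they were Jarid2 (r = 0.98), Cd1d1 (r = 0.98), Pld4 (r = 0.97), Tent5c (r = 0.97) and Coq2 (r = 0.97), and 4 of these 5 were also among the 5 closest with the expressed-gene scaling. These r values describe libraries that share treatment, depth and background, and they were picked as the highest of many. Cd1d1, an MHC class I-like molecule that presents lipids, was at 5.78 to 9.16 CPM in control naive, 34.4 and 42.1 CPM in control treated, 8.51 to 12 CPM in Sox2Hi naive and 13.2 and 35.8 CPM in Sox2Hi treated. Pld4, a lysosomal enzyme that degrades nucleic acid, was at 176 and 153 CPM in control treated and at 58.5 and 154 CPM in Sox2Hi treated. Both were low in Sox2Hi treated replicate 1 and high in replicate 2, like the class II chains, which follows from their choice by r over these libraries. Of the 7 genes themselves, Ciita followed their mean least closely (r = 0.80 with the all-gene scaling and 0.72 with the other).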

How the data were processed

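Bulk RNA of 10 libraries was counted per gene by the authors, who deposited 1 table of estimated counts with a column per library. The values are whole numbers, and the 4 above 6 digits end in 0. Extraction used a microprep kit and library construction a low-input kit, per the labels' protocols. Per the submitters' processing notes, kallisto 0.44.0 and mm10 were used, in a role the notes as held here do not give. Strandedness is not given in the sources used here. Symbols, coordinates and exon lengths came from GENCODE M21 (GRCm38), which matched 55144 of 55385 identifiers. The 92 spike-in and 4 transgene sequences stayed out of library sizes and tests.

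The 7 genes, the 33 pathway genes in 5 lists and the 6 marker lists were chosen with earlier results of these data known. Of the pathway genes, any may be named, with the 2 highest and 2 lowest log2 fold changes among the called ones preferred. Of these genes, 1 is counted with its list and is not reported here. The 5 genes most like the class II mean, by r on log2(CPM + 1), exclude Gm and Rik names. Groups came from graft and treatment in the labels. All 10 libraries entered 1 edgeR 4.0.16 fit (R 4.3.3) of 4 groups, with TMM factors, low counts removed by filterByExpr, and quasi-likelihood F-tests. Adjustment was Benjamini-Hochberg over all genes tested, the standard error was the log2 fold change over the square root of F, and intervals are 95%. The test was checked on simulated data. Totals of 13815734 to 22986193 counts per library gave a common biological coefficient of variation of 0.232.

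Alternatives were the expressed-gene scaling, RLE factors, library totals, DESeq2 1.42.0, limma-voom (limma 3.58.1) with quality weights, no filter on low counts, replicate blocks, the compared groups alone, a Ddx3y covariate, subtraction of background and each library left out. Background was the median reads per kb of silent receptor genes times exon length. Added after the data were seen were blocked fits of the naive libraries, a crossed block of the treated ones and the expressed-gene scaling with each library left out. Deviations from group means correlated at 0.274, 0.241 and 0.180 between naive libraries of one number, so the numbers, which titles and column labels share there, pair the naive libraries, though nothing in the labels explains them. For treated libraries titles and column labels differ, and the pairing is not settled: by title number control treated correlated with naive libraries at 0.166 to 0.194 and Sox2Hi treated with the other groups at -0.277 to -0.145. By column number, with 2.2 read as 2, pairs with a treated library ran from -0.277 to 0.00045. No replicate pair agreed within sampling noise: chi-square per degree of freedom was at least 12.5.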

Additional observations from a re-analysis of the deposited data

Results flagged for a closer look

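The deposited table also counts a tdTomato transgene sequence, which none of the comparisons used. It had reads in all 10 libraries, from 135 in control naive replicate 2 to 514 in control treated replicate 2, above the 3 reads that a count of 0 allows. All hosts were CatchupIVM-red mice, so no library without the reporter was at hand to compare.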

How the results depend on the processing

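Totals of 120 to 245 reads limit Ciita. In the control graft, 6 class II genes were called with RLE factors, limma-voom, both replicate blocks and without any 1 library, and 7 with DESeq2 and with the 2 groups alone. Shares of all genes tested are not at hand for those fits, so these counts cannot be weighed. The main fit called 18.7% of all genes tested and 70.5% of genes of at least 100 CPM higher. Library totals alone gave 2, background subtraction 3, and the expressed-gene scaling without 1 library between 1 and 6. In the Sox2Hi graft, 1 was called with the expressed-gene scaling, DESeq2 and background subtraction, 0 to 4 without 1 library, and 0 to 6 with the expressed-gene scaling without 1 library. Between treated grafts, 1 was called with library totals (Ciita, 0.85) and DESeq2, 0 to 5 without 1 library and 0 to 2 with the expressed-gene scaling without 1 library. For the interaction, RLE factors and limma-voom called 1, DESeq2 4, leaving out 1 library 0 to 6 and the expressed-gene scaling without 1 library 0 to 1. The causes were not tested.

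With the naive libraries paired by a replicate block, 0 genes were called between naive grafts under either scaling, as without the block. The block by title number over all libraries called 1 gene for the interaction, Cd74 at -1.04, and changed no other class II count; the block by description number put Ciita at 0.28 for the interaction. With 2 libraries in each treated group, deviations from the mean mirror each other, so the 2 treated pairs give 1 value of r, -0.145. A crossed block called 0 of the 7 between treated grafts, as without it. Shares of all genes tested are not at hand for the blocked fits of the naive or of the treated libraries, so their counts of 0 cannot be weighed.

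Signs of log2 values turned as follows. In the control graft, library totals gave Ciita -0.46, Nfya -0.40, Nfyc -0.43 and Creb1 -0.13. In the Sox2Hi graft, leaving out 1 library gave ranges of -0.27 to 1.20 for H2-Aa, -0.14 to 1.29 for H2-Ab1, -0.19 to 0.98 for H2-Eb1, -0.16 to 0.65 for H2-DMb1 and -0.018 to 1.27 for Cd74, each lowest without treated replicate 2. Between naive grafts, the expressed-gene scaling gave H2-Aa -0.063, H2-Ab1 -0.10, H2-Eb1 -0.18, H2-DMa -0.29, H2-DMb1 -0.14, Cd74 -0.026 and Ciita -0.18, background subtraction H2-Aa -0.088, H2-Ab1 -0.13, H2-Eb1 -0.21, H2-DMa -0.30, H2-DMb1 -0.16 and Cd74 -0.056 and library totals H2-Eb1 -0.052, H2-DMa -0.16, H2-DMb1 -0.015 and Ciita -0.059. Paired naive libraries with the expressed-gene scaling gave H2-Aa -0.0076, H2-Ab1 -0.040, H2-Eb1 -0.11, H2-DMa -0.23, H2-DMb1 -0.070 and Ciita -0.18, and with the all-gene scaling H2-DMa -0.0053. Leaving out 1 library gave -0.056 to 0.16 for H2-DMa and -0.18 to 0.35 for Ciita there, each lowest without Sox2Hi naive replicate 2. Between treated grafts, library totals gave H2-Aa 0.055, H2-Ab1 0.19, H2-Eb1 0.13, H2-DMa 0.066, H2-DMb1 0.17 and Cd74 0.095, and Ciita was at -0.015 with RLE factors, -0.036 with DESeq2 and -0.16 to 0.30 without 1 library. For the interaction, the expressed-gene scaling gave H2-Ab1 0.052, H2-Eb1 0.052, H2-DMa 0.10, H2-DMb1 0.040 and Ciita 0.75, library totals H2-Ab1 0.17, H2-Eb1 0.18, H2-DMa 0.23, H2-DMb1 0.18, Ciita 0.91 and Irf1 0.13 and background subtraction H2-Ab1 0.097, H2-Eb1 0.095, H2-DMa 0.12, H2-DMb1 0.072 and Ciita 0.20, and leaving out 1 library gave -0.37 to 0.30 for Ciita.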
